A study of Mus musculus with 4 samples.

Results

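Acetylation of histone H3 at the promoters of nuclear genes for the respiratory chain and ATP synthase was measured in the left ventricle of male C57BL6 mice. Members were all promoters of a deposited count table whose RefSeq ID mapped to a symbol beginning Nduf (series a, b, c, s and v), Uqcr, Cox4 to Cox8 or Atp5, or to Sdha, Sdhb, Sdhc or Sdhd. The rule found 109 RefSeq IDs for 94 genes of 23631 genes in all, and each gene was read at the ID with the highest mean count. The 94 genes were 36 of complex I, 8 assembly factors of complex I (Ndufaf), 4 of complex II, 8 of complex III, 20 of complex IV, 17 of ATP synthase and 1 pseudogene (Ndufs5-ps). Ndufa4 and Ndufa4l2 were placed with complex IV, to which the Ndufa4 protein is now assigned. The rule therefore takes in more than subunits, and leaves out subunits encoded in mitochondrial DNA and cytochrome c1 (Cyc1). All 94 passed the filter on low counts, a mean of at least 10 over the libraries.

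The mice, aged 10 to 12 weeks, underwent either transverse aortic constriction (TAC), in which a band around the aorta raises the pressure against which the left ventricle works, or sham surgery. For 4 weeks they received 2 subcutaneous injections a day of trichostatin A (TSA), which blocks histone deacetylases, dissolved in DMSO (0.6 mg/kg/day), or of DMSO alone (Veh). The 4 groups were TAC TSA, TAC Veh, Sham TSA and Sham Veh, each with 1 library of chromatin pulled down by an antibody to acetylated H3 (ChIP-seq). The number of ventricles behind a library is not stated in the labels, and an earlier deposit is cited in the labels of the sham libraries and not in those of the TAC libraries. Surgery and any difference in when the libraries were made therefore cannot be told apart.

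The respiratory chain passes electrons from NADH (complex I) and succinate (complex II) through complex III to oxygen at complex IV, cytochrome c oxidase, and ATP synthase uses the proton gradient that this builds. The heart depends on this machinery for nearly all of its ATP, and pressure overload that ends in heart failure is known for lowered expression of its genes. Complex IV is the complex in which mammals swap subunits by tissue: striated muscle uses Cox6a2, Cox7a1 and, in mice, Cox8b in place of the ubiquitous Cox6a1, Cox7a2 and Cox8a. Acetylated histone H3 marks the promoters of active genes, and an inhibitor of deacetylases blocks the enzymes that remove the mark.

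The promoter sequences of the isoform pairs are shown because the results turn on them, and because the pairs differ in base composition. They come from RefSeq on the GRCm38.p6 build, run from 250 bases before to 50 bases after the annotated start, and are written 5′ to 3′ on the gene's own strand. Cox8b lies at chr7:140900397-140900696 and Cox8a at chr19:7217567-7217866, both on the minus strand. Cox7a1 lies at chr7:30183921-30184220 on the plus strand, and Cox7a2 at chr9:79759804-79760103 and Cox6a1 at chr5:115348909-115349208 on the minus strand. Capitals mark every match, on either strand, to the 6 motifs listed after the sequences. No promoter sequence was at hand for Cox6a2.
Cox8b: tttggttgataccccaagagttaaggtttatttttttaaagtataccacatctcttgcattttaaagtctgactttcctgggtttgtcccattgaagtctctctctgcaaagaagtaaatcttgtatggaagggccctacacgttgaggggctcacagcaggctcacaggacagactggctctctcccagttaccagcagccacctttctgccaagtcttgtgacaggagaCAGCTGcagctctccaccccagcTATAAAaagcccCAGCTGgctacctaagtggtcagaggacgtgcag
Cox8a: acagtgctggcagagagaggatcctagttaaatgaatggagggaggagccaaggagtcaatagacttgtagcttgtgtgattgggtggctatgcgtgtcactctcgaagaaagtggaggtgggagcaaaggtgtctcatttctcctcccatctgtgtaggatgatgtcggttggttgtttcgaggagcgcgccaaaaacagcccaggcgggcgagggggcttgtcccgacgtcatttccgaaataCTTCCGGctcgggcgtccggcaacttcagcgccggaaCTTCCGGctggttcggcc
Cox7a1: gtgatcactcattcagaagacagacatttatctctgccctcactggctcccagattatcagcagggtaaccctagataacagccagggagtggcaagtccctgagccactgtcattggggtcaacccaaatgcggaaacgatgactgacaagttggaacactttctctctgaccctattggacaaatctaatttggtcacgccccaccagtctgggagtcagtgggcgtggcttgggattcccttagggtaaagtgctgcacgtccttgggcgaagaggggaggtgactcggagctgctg
Cox7a2: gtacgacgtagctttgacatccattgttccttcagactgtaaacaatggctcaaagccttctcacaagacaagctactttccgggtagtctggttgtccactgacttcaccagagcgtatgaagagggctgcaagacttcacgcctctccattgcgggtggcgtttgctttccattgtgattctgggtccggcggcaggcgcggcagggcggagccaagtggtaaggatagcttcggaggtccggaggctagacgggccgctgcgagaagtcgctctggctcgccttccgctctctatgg
Cox6a1: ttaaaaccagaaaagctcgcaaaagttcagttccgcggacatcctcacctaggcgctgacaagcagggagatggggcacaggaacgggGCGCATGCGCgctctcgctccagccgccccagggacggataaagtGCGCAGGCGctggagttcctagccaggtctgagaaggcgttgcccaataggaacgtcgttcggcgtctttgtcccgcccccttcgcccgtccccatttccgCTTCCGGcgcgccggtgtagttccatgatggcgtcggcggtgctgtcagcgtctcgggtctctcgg

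The motifs searched were GCGCANGCG (bound by the factor NRF1), CCGGAAG (ETS family, which includes GABP), TNAAGGTCA (bound by oestrogen-related receptors), CTANNNATA (core of the MEF2 site), CAGCTG (an E-box used by muscle factors) and TATAAA (a core promoter element). Cox8b held CAGCTG at 19 bases before and at base 17 after the start and TATAAA at base 5, and had 2 CpG dinucleotides in 300 bases. Its ubiquitous partner Cox8a held CTTCCGG, the reverse complement of the ETS motif, at 2 places and had 19 CpGs. Cox7a1 and Cox7a2 matched none of the motifs and had 7 and 20 CpGs. Cox6a1 held the NRF1 motif at 2 places, the first of them palindromic so that it matched on both strands with an overlap, and the ETS motif once, with 32 CpGs. A match is a description of letters, and no match says only that these letters are not in this window.

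Across the 76 members with a RefSeq promoter (81 promoters, of 93 members without the pseudogene), most were rich in CpG. The ratio of observed to expected CpG had a median of 0.829 at member promoters, against 0.384 at all 32851 promoters of the table and 0.810 at promoters of the genes in the upper 25% of acetylation level. It was at least 0.6 at 68 of 81 member promoters (84.0%), against 35.8% of all promoters and 77.8% of those in the upper 25%. The NRF1 motif was present at 28.4% of member promoters, against 6.25% of all and 15.9% of the upper 25%. It occurred at 38.9% of ATP synthase promoters and 26.5% of complex I promoters, but at 7.14% of complex IV promoters (1 of 14, Cox6a1). The ETS motif was present at 23.5%, against 8.86% and 19.4%, and the motif of oestrogen-related receptors at 3.70% (Atp5g3, Ndufb4 and Sdhd), against 1.28% and 0.579%. The MEF2 core was present at 2.47% of member promoters, against 7.24% of all and 3.83% of the upper 25%. CAGCTG was present at 7.41%, against 16.3% and 14.7%. The TATA letters were present at 11.1%, below the 13.6% of all promoters but above the 5.90% of the upper 25%. The 4 lowest CpG ratios were those of Cox8b (0.115), Cox7a1 (0.333), Cox7b (0.368) and Cox6b2 (0.432), all genes of complex IV and 3 of them tissue isoforms. Another gene starts on the opposite strand, pointing away, within 1 kb of 25 of the 76 members, among them Atp5j with Gabpa, Uqcrh with Lrrc41, Sdhd with Timm8b and Ndufb5 with Mrpl47. Others named below include Ndufa5 with Asb15, Atp5c1 with Kin, Atp5l with Gm30934, Atp5h with Kctd2, Ndufaf8 with Tepsin and Sdha with Ccdc127. Reads between such starts cannot be assigned to either gene. None of the 5 promoters printed above had such a neighbour.

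Counts were scaled between libraries with TMM factors (edgeR's trimmed mean of M-values), and a level is a scaled count per promoter. Total promoter counts were 6842296 in TAC TSA, 8873302 in TAC Veh, 9905553 in Sham TSA and 9612616 in Sham Veh. Promoters of olfactory and vomeronasal receptors, olfactory genes used here as a gauge of background, took 0.680% of gene-level counts in TAC TSA, 0.507% in TAC Veh, 0.428% in Sham TSA and 0.422% in Sham Veh. All 10 cardiomyocyte markers had counts in every library, 5 of them above the 75th percentile of all genes. No marker of fibroblasts (12), leukocytes (11 found of 12), endothelium (8) or smooth muscle and pericytes (7) was at 0, and the lowest count was 50 (Ptprc in TAC TSA). Of the endothelial markers, 4 were also above the 75th percentile. These counts therefore do not single out a cell type.

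Promoters of the respiratory chain were among the more acetylated of the ventricle. The members' mean level over the 4 libraries had a median of 485.6 scaled counts, at percentile 80.9 of all genes, against a median of 228.0 for all 22835 genes kept and 19.5 for receptor promoters. Of the 94 members, 65 were above the 75th percentile and 91 above the median of all genes. These are counts per promoter window, whose length is not given in the sources used here, so levels are compared between genes on the assumption of equal windows. Together the members held 0.751% (95% exact binomial interval 0.744 to 0.759) of gene-level counts in TAC TSA, 0.720% (0.714 to 0.727) in TAC Veh, 0.771% (0.765 to 0.778) in Sham TSA and 0.760% (0.754 to 0.767) in Sham Veh. The share was lowest in TAC Veh. These intervals, and all others below, cover counting error only and treat reads amplified by PCR as independent.

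The complexes differed in median level, from ATP synthase (median percentile 89.3 of all genes) to complex IV (68.8). The median level was 575.9 scaled counts for ATP synthase, 539.4 for complex III, 536.8 for complex II, 515.3 for complex I, 413.3 for the assembly factors and 386.7 for complex IV, and the ranges of the complexes overlapped. The highest member was Uqcrh, the hinge protein of complex III, with 865.7 scaled counts in TAC TSA, 978.3 in TAC Veh, 888.6 in Sham TSA and 978.6 in Sham Veh, at percentile 99.4 of all genes. Next to it stood Atp5c1, the γ subunit of the ATP synthase rotor, with 820.9, 796.6, 886.8 and 893.4 scaled counts in the same libraries. Part of the counts of Uqcrh, Atp5c1 and Sdhd may belong to their divergent neighbours Lrrc41, Kin and Timm8b. The highest of complex I was Ndufs1, a large iron-sulphur subunit, with 715.0, 673.2, 780.8 and 679.5, but its counts are identical to those of Eef1b2 and cannot be assigned to either gene. Highest of complex II was Sdhd, a membrane anchor (mean 699.1), of complex IV Cox4i1, the ubiquitous subunit 4 (708.7), and of the assembly factors Ndufaf3 (731.1). The lowest of each were Ndufa1 (296.5), Sdhc (480.6), Uqcrb (419.6), Atp5e, the ε subunit (385.0), Ndufaf6 (256.4) and, in complex IV, Cox7b2 (30.5). The 3 members on the X chromosome, Ndufa1, Ndufb11 and Cox7b, had mean levels of 296.5, 334.5 and 230.2, below the median of the 91 autosomal members (502.9).

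**Figure D1:**
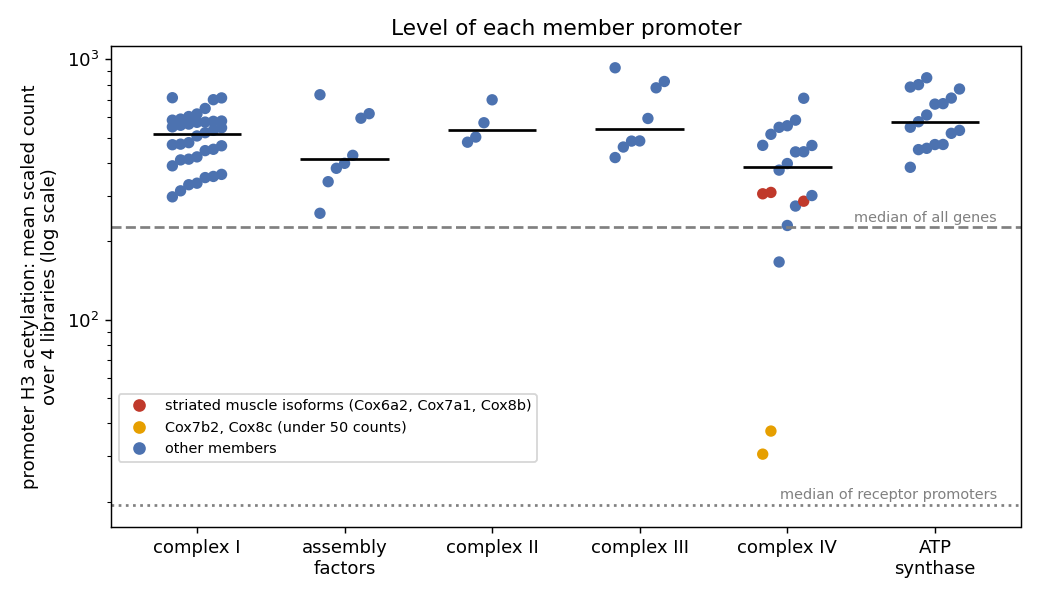
Mean scaled count over the 4 libraries for 93 member promoters without the pseudogene (log axis), by complex; each point is a gene and the bar is the median. All complexes lie above the median of all genes (228.0, dashed) at their medians. Each tissue isoform of complex IV sits below its ubiquitous partner, but the striated muscle isoforms (285.3, 308.3 and 304.6) stay above the dashed line. Cox7b2 and Cox8c (30.5 and 37.4) lie near the median of receptor promoters (19.5, dotted).

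Within complex IV the tissue isoforms carried less acetylation than their ubiquitous partners. The striated muscle isoforms Cox6a2, Cox7a1 and Cox8b had mean levels of 285.3, 308.3 and 304.6 scaled counts, against 466.9, 515.3 and 398.0 for Cox6a1, Cox7a2 and Cox8a. The testis isoforms Cox8c, Cox7b2 and Cox6b2 had 37.4, 30.5 and 166.7, and Cox4i2, known from lung, had 273.3. Ndufa4l2, a hypoxia-induced relative of Ndufa4, had 441.1, against 548.1 for Ndufa4. The 12 other genes of complex IV had a median of 467.1.

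With 1 library a group, no test between conditions was possible for single comparisons. A promoter was called apart between 2 libraries when the ratio of scaled counts was at least 1.5-fold and its exact 95% interval excluded 1, and this compares libraries, not conditions. Comparisons that share a library (TAC Veh, for example) are not independent of each other.

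TAC Veh was first set over Sham Veh, which asks what pressure overload did without the drug. The members lay slightly lower in TAC Veh, with a median log2 ratio of −0.08, against −0.00 for all genes, and 77 of the 94 were below 0, a direction that held under each of the 7 other settings tried (−0.33 to −0.06). Only 2 members were called apart, Cox8c higher and Cox8b lower, against 1.93% of all genes called higher and 0.582% called lower. The shift is thus a small one shared by many members. In the upper 25% of genes by level the medians were −0.035 at CpG-rich promoters (ratio at least 0.6) and −0.055 at CpG-poor ones. By the interval alone, whatever the size, 22 members were lower and 1 higher, against 7.2% of all genes lower and 5.82% higher; the members' larger counts make their intervals narrower (0.18 to either side at the median, against 0.27 for all genes). The median was −0.13 for complex I (31 of 36 below 0), −0.13 for complex II (4 of 4), −0.08 for the assembly factors (7 of 8), −0.07 for ATP synthase (14 of 17), −0.05 for complex IV (14 of 20) and −0.03 for complex III (6 of 8), and only the last changed sign under any of these settings (0.00 with a loess correction).

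Outside the tissue isoforms of complex IV, the lowest ratio was that of Ndufc1, an accessory subunit of the membrane arm of complex I. Ndufc1 had 270.5 scaled counts in TAC Veh and 343.5 in Sham Veh (log2 ratio −0.35, interval −0.57 to −0.12). Ndufa5, at the matrix arm, had 486.7 in TAC Veh and 615.7 in Sham Veh (−0.34, −0.51 to −0.17), and Ndufs7, which carries the last iron-sulphur cluster before the quinone, had 499.5 in TAC Veh and 610.1 in Sham Veh (−0.29, −0.46 to −0.12). Uqcrq of complex III had 443.2 and 537.9 (−0.28, −0.46 to −0.10), Sdhd of complex II 630.8 and 752.7 (−0.26, −0.41 to −0.10), and Atp5l, a membrane subunit of ATP synthase, 540.0 and 639.7 (−0.24, −0.41 to −0.08), TAC Veh being given first. Ndufa5, Sdhd and Atp5l have a divergent neighbour (Asb15, Timm8b and Gm30934), so part of their reads may be the neighbour's. None of the members named so far in this paragraph reached 1.5-fold. On the other side, Ndufab1, the mitochondrial acyl carrier protein that is also part of complex I, had 383.0 scaled counts in TAC Veh and 332.4 in Sham Veh (0.20, −0.01 to 0.42). Among the assembly factors the lowest was Ndufaf1, with 311.9 in TAC Veh and 362.0 in Sham Veh (−0.21, −0.43 to 0.00), and the highest was Ndufaf6. Ndufaf6 had 274.4 and 254.6 (0.11, −0.14 to 0.35), Atp5pb, the peripheral stalk subunit b, 825.2 and 789.7 (0.06, −0.08 to 0.20), and Uqcrc1, a core protein of complex III, 498.5 and 486.0 (0.04, −0.14 to 0.22), and all 4 intervals include 0. Uqcrh had nearly the same level in both libraries (978.3 in TAC Veh and 978.6 in Sham Veh), and Sdha, with the highest ratio of complex II, had 485.7 and 523.1 (−0.11, −0.28 to 0.07).

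The striated muscle isoforms had lower ratios than their partners in this comparison. Cox8b had 208 counts in TAC Veh and 345 in Sham Veh, a log2 ratio of −0.64 (−0.89 to −0.39), or 1.56-fold lower in TAC Veh. Cox6a2 had 214 and 299 counts (−0.39, −0.65 to −0.13) and Cox7a1 253 and 350 (−0.38, −0.61 to −0.14), and neither reached 1.5-fold. The ubiquitous Cox8a had 377 counts in TAC Veh and 428 in Sham Veh (−0.09, −0.29 to 0.11), Cox6a1 465 and 473 (0.07, −0.12 to 0.26) and Cox7a2 487 and 542 (−0.06, −0.24 to 0.12). Each muscle isoform thus had an interval below 0, and each partner an interval that includes 0. Cox8c, the testis isoform of subunit 8, had 45 counts in TAC Veh and 25 in Sham Veh (0.94, 0.20 to 1.71), at a level near that of receptor promoters, whose median log2 ratio was 0.29 in this comparison. Scaled on receptor promoters instead, Cox8c was no longer called (0.70), while Cox6a2 (−0.64), Cox7a1 (−0.62) and Ndufc1 (−0.59) were called lower in TAC Veh beside Cox8b, against 3.89% of all genes called lower under that scaling.

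**Figure D2:**
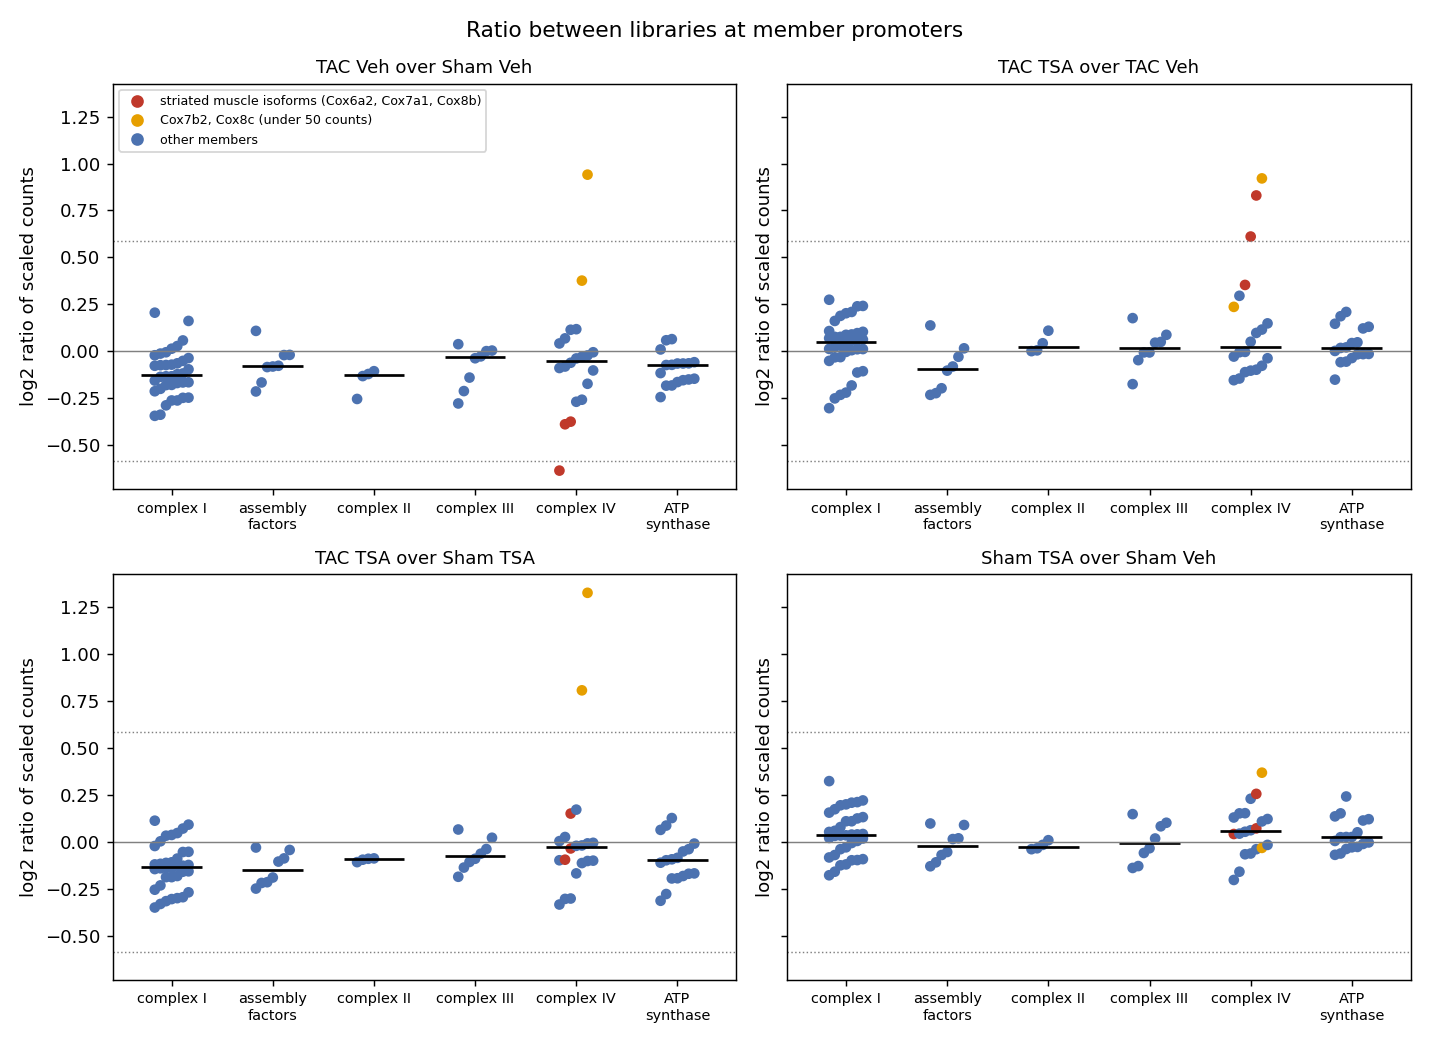
Log2 ratio of scaled counts between libraries for 93 member promoters (without the pseudogene), by complex, in each of 4 comparisons; each point is a gene, the bar is the median and dotted lines mark 1.5-fold. The striated muscle isoforms are the lowest points of TAC Veh over Sham Veh (−0.64, −0.39 and −0.38) and high in TAC TSA over TAC Veh (0.83, 0.61 and 0.35), and Cox7b2 and Cox8c rest on under 50 counts a library.

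The second comparison, TAC TSA over TAC Veh, asks what the drug did under pressure overload. The members as a whole were centred with all genes (median log2 ratio 0.02, against 0.00), with 55 above and 39 below 0. In the upper 25% of genes by level the medians were −0.079 at CpG-rich promoters and −0.055 at CpG-poor ones. The members thus lay slightly above that group. Scaling on receptor promoters turned the members' median to −0.37, together with all genes (−0.38). Called apart were 3 members, all higher in TAC TSA, namely Cox8b, Cox6a2 and Cox7b2, and none lower, against 4.06% of all genes called higher and 0.342% lower. By the interval alone, 10 members were higher and 6 lower, against 8.13% of all genes higher and 10.4% lower. The medians of the complexes lay between −0.09 for the assembly factors and 0.05 for complex I, with complex II at 0.02, complex III at 0.02, complex IV at 0.02 and ATP synthase at 0.02. Of 36 complex I genes, none was called apart, and their ratios ran from −0.30 (Ndufab1) to 0.27 (Ndufb5).

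Cox8b had 293 counts in TAC TSA and 208 in TAC Veh, or 365.0 and 205.3 after scaling (log2 ratio 0.83, 0.57 to 1.09), 1.78-fold higher. Cox6a2 had 259 and 214 counts, or 322.6 and 211.2 after scaling (0.61, 0.34 to 0.88), 1.53-fold higher and thus just inside the 1.5-fold rule. Cox7a1 had 256 and 253 counts, or 318.9 and 249.7 after scaling (0.35, 0.10 to 0.61), outside it. The 3 muscle isoforms were the members of complex IV with a mean count of at least 100 that had the highest ratios. Their partners had log2 ratios of 0.15 (−0.07 to 0.37) for Cox8a, −0.01 (−0.21 to 0.19) for Cox6a1 and 0.12 (−0.08 to 0.31) for Cox7a2. Cox7b2, a testis isoform, had 42 counts in TAC TSA and 28 in TAC Veh (0.92, 0.20 to 1.67), again at a low level, where the receptor promoters had a median of 0.41. With scaling on receptor promoters none of the calls on Cox8b (0.45), Cox6a2 (0.23) and Cox7b2 (0.54) was kept, and 6 other members were called lower in TAC TSA and none higher, against 14.4% of all genes called lower under it. A loess correction also ended the call on Cox7b2 (0.60).

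The other members named by their place in a complex stayed under 1.5-fold. Of them, Ndufb5, Ndufaf8, Sdhd, Uqcrh, Atp5h and Sdha have a divergent neighbour, named above, whose reads may be part of their counts. Ndufb5, an accessory subunit of the membrane arm, had 602.9 scaled counts in TAC TSA and 498.5 in TAC Veh (0.27, 0.09 to 0.46). Atp5o, the subunit that joins the peripheral stalk to the catalytic head, had 503.2 in TAC TSA and 435.3 in TAC Veh (0.21, 0.01 to 0.41), and Uqcrb of complex III 448.4 and 396.8 (0.18, −0.03 to 0.39). Ndufaf8 had 634.0 in TAC TSA and 576.5 in TAC Veh (0.14, −0.04 to 0.31) and Sdhd 680.1 and 630.8 (0.11, −0.06 to 0.28). Lower in TAC TSA were Ndufab1, with 310.2 in TAC TSA and 383.0 in TAC Veh (−0.30, −0.54 to −0.07), Ndufaf7, a methyltransferase needed for complex I assembly, with 371.2 and 436.3 (−0.23, −0.45 to −0.02), and Uqcrh, with 865.7 and 978.3 (−0.18, −0.32 to −0.04). Atp5h, a stalk subunit, had 607.9 and 675.2 (−0.15, −0.32 to 0.02) and Ndufa4l2 418.5 and 465.9 (−0.16, −0.36 to 0.05). Sdha, the flavoprotein of complex II, had 485.8 in TAC TSA and 485.7 in TAC Veh (0.00, −0.20 to 0.20).

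**Figure D3:**
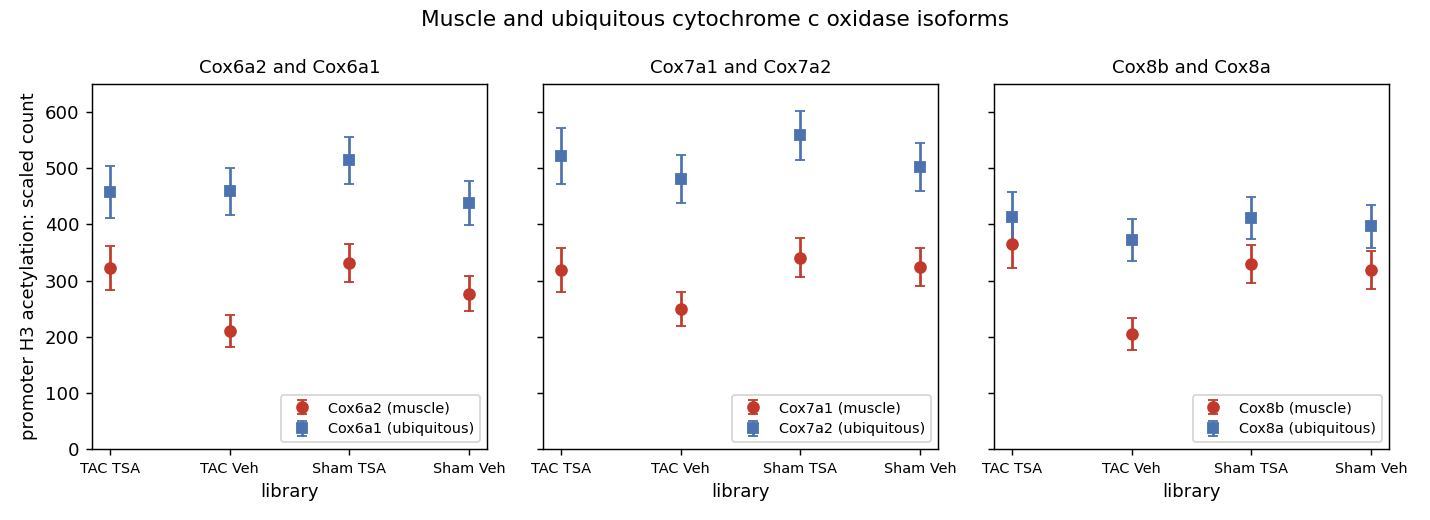
Scaled count of each striated muscle isoform (red circles) and its ubiquitous partner (blue squares) in the 4 libraries, with 95% intervals that cover counting error only. Each muscle isoform is lowest in TAC Veh (Cox6a2 211.2, Cox7a1 249.7, Cox8b 205.3), while the partners stay between 372.2 and 558.0 in all libraries.

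In the other 2 comparisons the muscle isoforms were not called apart. TAC TSA over Sham TSA gave a median log2 ratio of −0.11 over the members, against −0.01 for all genes, with 76 of 94 below 0. A loess correction turned the members' median to 0.01. In the upper 25% of genes by level the medians were −0.12 at CpG-rich promoters and −0.14 at CpG-poor ones. The members were thus not lower than that group. Called apart were 2 members, Cox7b2 (42 counts in TAC TSA, 23 in Sham TSA; 1.33, 0.56 to 2.13) and Cox8c (42 and 33; 0.81, 0.12 to 1.51), both higher, against 7.2% of all genes higher and 0.206% lower. By the interval alone, 2 members were higher and 22 lower, against 10.3% of all genes higher and 13.8% lower. Receptor promoters had a median of 0.67 here. Scaled on them, neither Cox7b2 (0.73) nor Cox8c (0.21) was called, and 78 members were called lower and none higher, against 52.6% of all genes called lower, with a median of −0.70 over the members and −0.61 over all genes. Cox8b had a log2 ratio of 0.15 (−0.08 to 0.38), Cox6a2 of −0.03 (−0.27 to 0.20) and Cox7a1 of −0.10 (−0.33 to 0.14), so all 3 intervals include 0. The medians were −0.13 for complex I, −0.15 for the assembly factors, −0.09 for complex II, −0.08 for complex III, −0.03 for complex IV and −0.10 for ATP synthase. Cox6b1, the ubiquitous subunit 6B, had 336.3 scaled counts in TAC TSA and 423.9 in Sham TSA (−0.33, −0.55 to −0.12), and Ndufv3 had 312.7 in TAC TSA and 398.5 in Sham TSA (−0.35, −0.58 to −0.12), the lowest ratio of the members.

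Sham TSA over Sham Veh called no member apart, against 0.582% of all genes called higher and 0.582% lower. By the interval alone, 10 members were higher and 2 lower, against 5.2% of all genes higher and 3.81% lower. The members' median log2 ratio was 0.03, against 0.01 for all genes, and −0.01 with receptor scaling. Cox6a2 had 330.6 scaled counts in Sham TSA and 276.8 in Sham Veh (0.26, 0.03 to 0.48) and its ubiquitous partner Cox6a1 had 513.6 in Sham TSA and 437.9 in Sham Veh (0.23, 0.05 to 0.41), so the ratio within this pair hardly differed. Cox8b (0.04, −0.18 to 0.26) and Cox7a1 (0.07, −0.14 to 0.29) had intervals that include 0. The drug's log2 ratio in TAC less that in sham was 0.79 (0.45 to 1.13) for Cox8b, 0.36 (0.00 to 0.71) for Cox6a2, 0.28 (−0.06 to 0.62) for Cox7a1 and −0.50 (−0.81 to −0.18) for Ndufab1, the lowest of the members. These intervals cover counting error in 4 libraries, and the interaction itself could not be tested.

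The ratio of a muscle isoform to its partner within 1 library needs no scaling between libraries. Cox8b over Cox8a was 0.885 in TAC TSA, 0.552 in TAC Veh, 0.800 in Sham TSA and 0.806 in Sham Veh. Cox6a2 over Cox6a1 was 0.706 in TAC TSA, 0.460 in TAC Veh, 0.644 in Sham TSA and 0.632 in Sham Veh. Cox7a1 over Cox7a2 was 0.612 in TAC TSA, 0.520 in TAC Veh, 0.610 in Sham TSA and 0.646 in Sham Veh. In all 3 pairs TAC Veh was the lowest of the libraries. Between TAC Veh and Sham Veh the pair ratios differed by −0.55 (−0.88 to −0.22) for Cox8b, −0.46 (−0.78 to −0.14) for Cox6a2 and −0.31 (−0.61 to −0.01) for Cox7a1, on the log2 scale with exact conditional intervals. Between TAC TSA and TAC Veh they differed by 0.68 (0.34 to 1.03), 0.62 (0.28 to 0.95) and 0.24 (−0.09 to 0.56), the last with an interval that includes 0. Between TAC TSA and Sham TSA the differences were 0.15 (−0.16 to 0.46), 0.13 (−0.17 to 0.44) and 0.01 (−0.29 to 0.30) for the same pairs in that order.

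Of the 5 other tissue pairs, only Cox6b2 over Cox6b1 was also lowest in TAC Veh. Cox4i2 over Cox4i1 was 0.421 in TAC TSA, 0.409 in TAC Veh, 0.346 in Sham TSA and 0.370 in Sham Veh, and Ndufa4l2 over Ndufa4 was 0.844, 0.891, 0.735 and 0.766 in the same libraries, so both were higher in the TAC libraries by differences whose intervals all include 0. Cox6b2 over Cox6b1 was 0.522, 0.397, 0.417 and 0.449, highest in TAC TSA like Cox8b over Cox8a and Cox6a2 over Cox6a1, with a difference from TAC Veh of 0.39 (−0.02 to 0.81). Cox8c over Cox8a was 0.127, 0.119, 0.0727 and 0.0584, and differed between TAC Veh and Sham Veh by 1.03 (0.26 to 1.83). Cox7b2 over Cox7b was 0.244, 0.138, 0.0788 and 0.0881, and differed between TAC TSA and Sham TSA by 1.63 (0.81 to 2.48). Both pairs with a low-count isoform were highest in TAC TSA and lowest in a sham library, and receptor promoters took their largest share of counts in TAC TSA too; the part of this in the result was not tested.

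**Figure D4:**
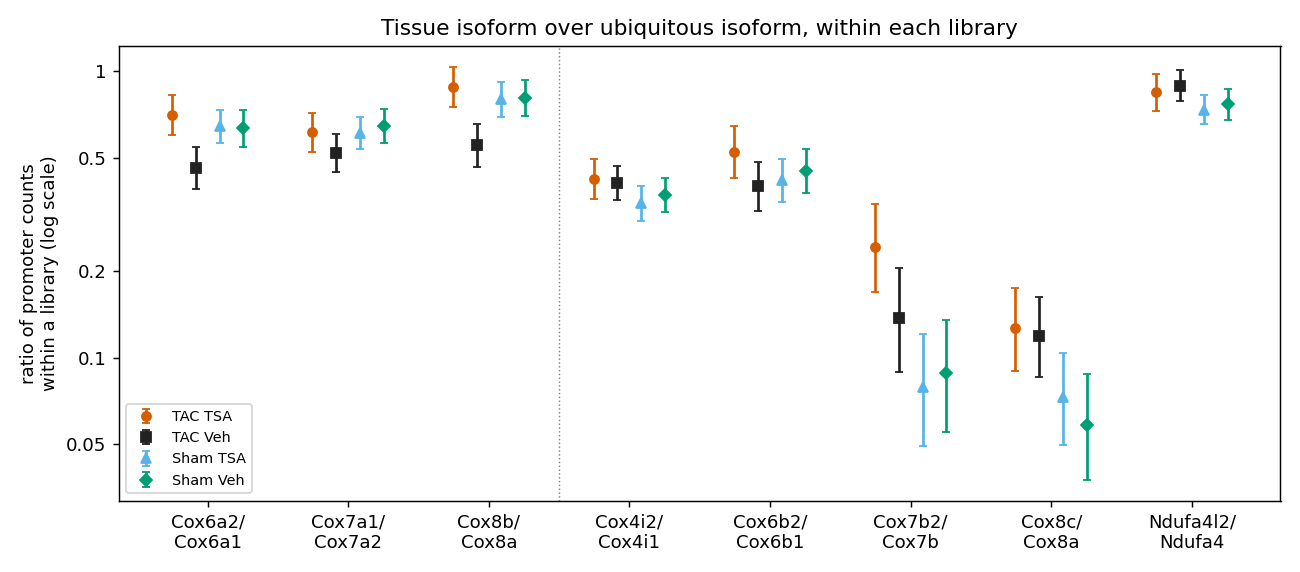
Ratio of tissue isoform to ubiquitous isoform counts within each library (log axis) with exact 95% intervals for counting error; the dotted line parts the 3 striated muscle pairs from 5 other pairs. The muscle pairs are lowest in TAC Veh (0.460, 0.520 and 0.552), which the pairs right of the line other than Cox6b2/Cox6b1 are not.

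Cardiomyocyte markers moved with the muscle isoforms, and the medians of fibroblast and leukocyte markers went the other way. The part of cell types in the result was not tested. The 10 cardiomyocyte markers had a summed level of 4976.4 scaled counts in TAC TSA, 3144.0 in TAC Veh, 4883.9 in Sham TSA and 4342.9 in Sham Veh, again lowest in TAC Veh. Their median log2 ratio was −0.52 in TAC Veh over Sham Veh (10 of 10 below 0, 4 called lower) and 0.68 in TAC TSA over TAC Veh (10 of 10 above 0, 7 called higher). The 12 fibroblast markers summed to 2355.5 in TAC TSA, 2709.7 in TAC Veh, 2348.7 in Sham TSA and 2260.8 in Sham Veh, with medians of 0.21 (2 called higher) and −0.23 (1 called lower). With scaling on receptor promoters the cardiomyocyte medians were −0.76 (8 called lower) and 0.29 (2 called higher). The 8 endothelial markers summed to 4106.9 in TAC TSA, 3951.5 in TAC Veh, 4302.4 in Sham TSA and 4446.6 in Sham Veh, also lowest in TAC Veh, with a median log2 ratio in TAC Veh over Sham Veh of −0.21 (8 of 8 below 0, 5 with an interval below 0, none called) and 0.045 in TAC TSA over TAC Veh (5 of 8 above 0). The 7 markers of smooth muscle and pericytes summed to 1563.3 in TAC TSA, 1715.7 in TAC Veh, 1548.0 in Sham TSA and 1578.5 in Sham Veh. The 11 leukocyte markers summed to 1719.0, 2024.6, 2029.8 and 1824.7 in the same libraries. Summed levels of the muscle isoforms were 1006.5, 666.3, 1000.0 and 920.2, and those of their ubiquitous partners 1390.2, 1311.9, 1482.7 and 1335.9. The ventricle was chopped whole, so fewer cardiomyocytes and less acetylation per cardiomyocyte cannot be told apart.

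Other genes of the pathway, from a list of 50 that includes 1 member, were close to the members. Of the 49 that are no members, none was called apart in any of the 4 comparisons; scaling on receptor promoters called 6 of them lower in TAC TSA over TAC Veh and 44 lower in TAC TSA over Sham TSA, where it moved all genes down as given above. Their median log2 ratio was −0.09 in TAC Veh over Sham Veh (41 of 49 below 0), −0.03 in TAC TSA over TAC Veh, −0.15 in TAC TSA over Sham TSA (44 of 49 below 0) and 0.05 in Sham TSA over Sham Veh. Cyc1, cytochrome c1 of complex III, had a log2 ratio of −0.15 in TAC Veh over Sham Veh, and Slc25a4, the muscle ADP/ATP carrier, had −0.10, and 0.08 in TAC TSA over TAC Veh. Of 11 regulators of these genes, none was called apart in any of the 4 comparisons, for which the shares of all genes called are given above. Their median log2 ratio was −0.16 in TAC Veh over Sham Veh (8 of 11 below 0) and 0.15 in TAC TSA over TAC Veh (9 of 11 above 0). Ppargc1a, which encodes the coactivator PGC-1α, had 375 counts in TAC TSA, 346 in TAC Veh, 558 in Sham TSA and 472 in Sham Veh, with log2 ratios of −0.35 (−0.56 to −0.15) in TAC Veh over Sham Veh and 0.45 (0.24 to 0.67) in TAC TSA over TAC Veh. Ppargc1b, its paralogue, had 681, 658, 852 and 840 counts, with −0.26 (−0.41 to −0.11) and 0.39 (0.23 to 0.54). Nrf1, the factor of the motif above, had log2 ratios of 0.08 and −0.23 in these comparisons, and Gabpa, an ETS factor, −0.20 and 0.17. Gabpa starts divergently from the member Atp5j, so its counts are not separate from those of a member. Esrra had 0.002 and 0.154, Esrrg 0.056 and 0.095, and Tfam −0.098 and −0.044.

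The low-CpG promoters among the members were those of the muscle isoforms Cox8b and Cox7a1 and 11 others. Of the 13 member promoters under 0.6, the median log2 ratio was −0.17 in TAC Veh over Sham Veh and 0.08 in TAC TSA over TAC Veh, against −0.11 and 0.01 at the 68 CpG-rich ones. Without Cox7a1, Cox8b and Cox7b2 the 10 remaining had −0.17 and 0.06. Over all genes, CpG-poor promoters had medians of 0.02 and 0.09 in these comparisons and CpG-rich ones −0.01 and −0.07. Cox8b and Cox7a1 stood at percentiles 58.2 and 58.6 of level. In the upper 25% of genes by level, CpG-rich promoters had medians of −0.04 and −0.08 and CpG-poor ones −0.06 and −0.06. Cox7b, with the third lowest CpG ratio and no muscle isoform, had log2 ratios of −0.27 (−0.54 to 0.00) and 0.10 (−0.21 to 0.40), and Cox6b2 −0.26 (−0.58 to 0.06) and 0.30 (−0.05 to 0.64).

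**Figure D5:**
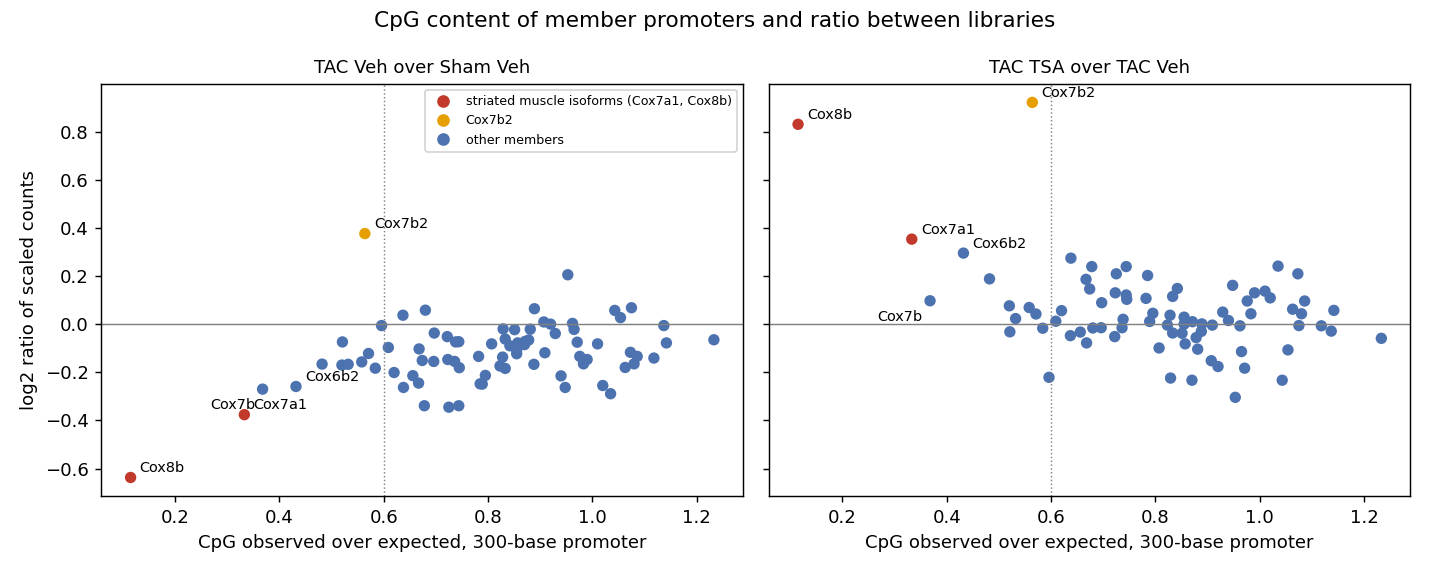
Log2 ratio of scaled counts against the observed over expected CpG of each member promoter (81 promoters of 76 members; the dotted line marks 0.6). Cox8b and Cox7a1 have the lowest CpG ratios (0.115 and 0.333) and lie at the lower left in TAC Veh over Sham Veh (−0.64 and −0.38) and at the upper left in TAC TSA over TAC Veh (0.83 and 0.35).

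The only test across conditions was an additive model of surgery and drug over all 4 libraries (edgeR quasi-likelihood, Benjamini-Hochberg over 22835 genes, threshold 0.05). No member passed for surgery or for drug, by edgeR, DESeq2 or limma-voom, against 0.206% of all genes called higher and 0.00876% lower for the drug, and 0.0131% higher and 0.0219% lower for surgery by edgeR. For the drug, 2 members had an unadjusted p under 0.05, both muscle isoforms and both higher, against 2.78% of all genes higher. Cox6a2 had a log2 drug effect of 0.42 (edgeR adjusted p = 0.189). Cox8b had a log2 drug effect of 0.40 (edgeR adjusted p = 0.215). Both had a higher level in each TSA library than in the Veh library of the same surgery. For Cox8b after sham surgery the log2 ratio was only 0.04, with an interval that includes 0 (−0.18 to 0.26). Cox7a1 had a log2 drug effect of 0.20 (edgeR adjusted p = 1). For surgery, 12 members had an unadjusted p under 0.05, 10 lower and 2 higher in TAC, against 4.1% of all genes lower and 5.22% higher. They had a lowest adjusted p of 0.319 for Cox8c (log2 effect 0.87, edgeR). Among the 10 were Ndufa5 (−0.25, adjusted p = 0.356) and Ndufs7 (−0.22, adjusted p = 0.423) of complex I, Atp5j2 (−0.25, adjusted p = 0.392) and Atp5b, the catalytic β subunit (−0.18, adjusted p = 0.501), of ATP synthase, and Uqcr11 of complex III (−0.20, adjusted p = 0.435), all by edgeR. The residual degree of freedom of this model is the interaction of surgery and drug, in which Cox8b was the largest of the members other than Cox7b2. The members' median surgery effect was −0.11, against −0.01 for all genes, and the median drug effect 0.03, against 0.00.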

How the data were processed

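Per the labels' protocols, left ventricle was fixed for 10 minutes in 1% formaldehyde, precipitated with an antibody against acetylated histone H3, amplified over 15 PCR cycles and sequenced as fragments of about 250 bp. The authors deposited raw counts per RefSeq promoter, whole numbers that were not normalised. BWA 0.5.9, MACS 1.4.1 and mm9 are named, without roles, in the submitters' processing notes. No source used here gives the promoter window, the counter or the handling of duplicate reads. The 6 deposited region lists were not used, because no annotation of their build was at hand to tie regions to genes.

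Of 31594 RefSeq IDs, 31115 (98.5%) matched a symbol of GRCm38.p6, used for names and promoter sequences only. The 479 unmatched IDs held 1.11% of counts and were left out. Of the 94 members, 84 had 1 ID and 3 had several IDs with distinct counts. Of 23631 genes, 22835 reached a mean count of 10 and were scaled by TMM (edgeR 4.0.16, R 4.3.3). Log2 ratios have exact 95% conditional (Clopper-Pearson) intervals. The additive model used edgeR's quasi-likelihood test on the counts, whose p-values measure only the spread between these 4 libraries, with DESeq2 1.42.0 and limma-voom (limma 3.58.1) as alternatives; its 1 residual degree of freedom is the interaction. The intervals were computed with scipy 1.17.1 in Python 3.11.15 and drawn with matplotlib 3.10.9, and the fits were tested on simulated data. Ratios of count ratios within a library have exact conditional intervals.

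The members and lists were chosen with earlier results of these data known. Members were named when called apart, when part of an isoform pair, or as the highest or lowest of their complex in level or ratio (ratios with a mean count of at least 100); Ndufa5, Ndufs7, Ndufs4, Ndufv3, Ndufb11, Uqcr11, Atp5b, Atp5j2, the Atp5g genes, Ndufs5 and its pseudogene were named after their values were seen.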

Additional observations from a re-analysis of the deposited data

Results flagged for a closer look

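The genes Cox8b and Cox7b2 had ratios of opposite sign under the same contrast. Cox8b, the striated muscle isoform of subunit 8, had a log2 ratio of TAC over sham of 0.15 under TSA and of −0.64 under vehicle. The first has an interval that includes 0 (−0.08 to 0.38) and is −0.45 with scaling on receptor promoters. No higher level in TAC than in sham under TSA is therefore shown. The difference was not tested, since each group has 1 library; its counting interval is 0.45 to 1.13. Cox7b2 had a log2 ratio of 0.92 for the drug after TAC and of −0.032 after sham surgery. That difference was not tested either, and its counting interval, −0.23 to 2.13, includes 0.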

How the results depend on the processing

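No paired analysis was possible because each group has 1 library, and for the same reason no library could be left out. Scaling on receptor promoters shifted the median log2 ratio of all genes to −0.245 (TAC over sham under vehicle), −0.38 (drug after TAC), −0.61 (TAC over sham under TSA) and −0.025 (drug after sham). The members' medians became −0.33, −0.37, −0.70 and −0.006 in these comparisons, and the counts of members called apart 4, 6 and 78 in the first 3, all lower, against 3.89%, 14.4% and 52.6% of all genes called lower; drug after TAC thus had 6 lower and none higher, in place of 3 higher. Relative to all genes the members thus stayed within 0.1. Under it, Cox6a2 (−0.64), Cox7a1 (−0.62) and Ndufc1 (−0.59) were called lower in TAC Veh over Sham Veh, where Cox8c (0.70) was no longer called. Cox8b (0.45), Cox6a2 (0.23) and Cox7b2 (0.54) were no longer called in TAC TSA over TAC Veh, so those calls depend on the scaling. In TAC TSA over Sham TSA its shift of all genes put Cox8a (0.004 by TMM) at −0.59 and Cox8b (0.15 by TMM) at −0.45. Scaling by total promoter count gave members' medians of −0.062, 0.054 and −0.035 in the first 3 comparisons. A loess correction gave −0.062, 0.094 and 0.01 and left 1 member called in TAC TSA over Sham TSA, with Cox8c at 0.34 there and Cox7b2 at 0.60 in TAC TSA over TAC Veh no longer called. The striated muscle isoform ratios kept their direction in TAC Veh over Sham Veh and in TAC TSA over TAC Veh under 2 other choices. These were all ubiquitous complex IV subunits summed as the partner, and distinct IDs summed. With the summed partner, whether an interval included 0 was not kept throughout. Cox7a1 in TAC TSA over TAC Veh then had an interval above 0, and its small ratio in Sham TSA over Sham Veh changed sign. Median-of-ratios size factors, no filter and other choices of ID kept the direction and the count of calls, within 1.5 times, of each of these medians and counts. The additive model called no member under any setting run. Depth limits Cox7b2 and Cox8c, whose counts of 23 to 45 leave intervals over 1 wide on the log2 scale.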

Other observations

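The c subunit of the ATP synthase rotor is encoded by 3 genes whose mature proteins are alike, Atp5g1, Atp5g2 and Atp5g3. Atp5g2 had the most acetylation of them, with 677.6 scaled counts in TAC TSA, 685.1 in TAC Veh, 682.0 in Sham TSA and 658.2 in Sham Veh. Atp5g3 had 523.2, 543.9, 558.0 and 569.4 in the same libraries, and Atp5g1 467.1, 429.4, 534.4 and 451.8. The order of the 3 was the same in every library. Of these, Atp5g1 had the largest log2 ratio in Sham TSA over Sham Veh, 0.24 (0.07 to 0.42), against 0.05 (−0.10 to 0.20) for Atp5g2 and −0.03 (−0.19 to 0.13) for Atp5g3.

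The promoter of the pseudogene Ndufs5-ps had 335 counts in TAC TSA, 444 in TAC Veh, 532 in Sham TSA and 477 in Sham Veh. Those of the gene Ndufs5 were 309, 422, 512 and 457 in the same libraries. The values of both are uncertain, because the authors' counting of reads that match near-identical copies is not stated.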
